A study of Mus musculus and Acomys cahirinus with 84 samples.

Results

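The 50 genes described here carry out DNA replication or supply its nucleotides, and they were followed in primary skin fibroblasts of 3 rodent populations after gamma irradiation. They were taken from a list of symbols and not by a rule on measured values. The list was, however, chosen with earlier results of these data known. All 50 had 1 row in each of the deposited tables, among 56980 rows of the mouse table and 19818 of the A. cahirinus table. Cells came from mice of a strain labelled C56BL6, from wild mice and from Acomys cahirinus, a spiny mouse. Each population had 7 groups of 4 libraries of polyA RNA, 84 libraries in all. The groups were cells collected 24 h after 0, 10 or 20 Gy, cells collected 12 d after 0, 10 or 20 Gy, and cells labelled untreated passaged, which belonged to the 12 d series. No transgene, genetic change or drug is given in the labels, nor the age or sex of the animals. All 24 h libraries carry the batch label B1 and all 12 d libraries B2, so time cannot be told apart from batch, and values of the 2 times were never tested against each other.

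A cell replicates its DNA in ordered steps. In the first, licensing, the origin recognition complex (Orc1 and Orc6 among its subunits), Cdc6 and Cdt1 load the ring of Mcm2 to Mcm7 onto DNA, while Gmnn (geminin) blocks Cdt1 after S phase has begun. The kinase Cdc7 with its activator Dbf4, together with Mcm10, Cdc45 and the GINS complex (Gins1 to Gins4), turns the loaded ring into a working helicase. Primase and the polymerases alpha, delta and epsilon then copy the strands with the sliding clamp Pcna and its loader (Rfc1 to Rfc5), while ribonucleotide reductase (Rrm1 and Rrm2), Tk1, Tyms and Dut supply deoxynucleotides. Many of these genes are transcribed in late G1 and S phase under E2F transcription factors, and in skin fibroblasts their mRNAs are widely read as signs of a cycling culture. In bulk libraries, fewer cells in S phase and less RNA per cell cannot be told apart.

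The promoters are shown first because the members share a role that E2F factors control. RefSeq windows (mouse build GRCm38.p6, not the build of the counts) were found for 41 of the 50 members, and the 250 bases before the start were searched on both strands for TTTCCCGC, TTTCGCGC, TTTGCCGC and TTTGGCGC. These E2F words occurred in 8 members (19.5%) and in 2.2% of all 27025 mouse genes with such a window. The words TTTGAA and TTCGAA of the cell cycle homology region occurred in 19.5% of members and 19.6% of those genes, and CCAAT in 58.5% and 37.5%. A match describes letters, not binding. The 100 bases around the E2F words of the 5 licensing genes that hold them follow, read toward the gene, with the words in capitals; overlapping words on opposite strands form 1 longer run.
Mcm5 (chr8:75109312-75109411, plus strand): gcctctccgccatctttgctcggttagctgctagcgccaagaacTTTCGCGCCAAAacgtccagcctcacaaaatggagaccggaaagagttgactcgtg
Mcm6 (chr1:128359730-128359829, minus strand): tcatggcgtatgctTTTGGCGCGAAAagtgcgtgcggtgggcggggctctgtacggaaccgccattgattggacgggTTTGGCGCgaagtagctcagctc
Mcm7 (chr5:138171995-138172094, minus strand): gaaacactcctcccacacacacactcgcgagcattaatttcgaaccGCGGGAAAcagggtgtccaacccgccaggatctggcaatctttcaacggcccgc
Orc1 (chr4:108579354-108579453, plus strand): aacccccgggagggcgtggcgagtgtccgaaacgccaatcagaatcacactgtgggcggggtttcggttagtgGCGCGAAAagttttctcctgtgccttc
Cdc6 (chr11:98907967-98908066, plus strand): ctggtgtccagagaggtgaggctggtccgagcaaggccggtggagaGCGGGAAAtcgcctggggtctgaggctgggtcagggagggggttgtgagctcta

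Gins3, Pola1 and Rfc3 also held an E2F word. The 8 members with a word and the 33 without one overlapped in their changes: in passaged against untreated C56BL6 cells the median log2 fold change was 1.8 (0.58 to 2.82) with a word and 1.35 (-0.10 to 3.06) without, where the range over members is in parentheses.

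The C56BL6 libraries held 26.65 to 39.82 M counts, the wild mouse libraries 17.42 to 35.98 M and the A. cahirinus libraries 25.55 to 52.86 M; values below are counts per M (CPM) after TMM scaling within a population. The shallowest library, wild replicate 1 at 24 h and 10 Gy, had 17843 genes detected. The sum over 10 fibroblast markers was at least 15800.0 CPM in every library. Col1a1, Col1a2, Fn1 and Vim were each at 1310 CPM or more throughout. Other markers on the list were not high everywhere. Lum had a median of 0.492 CPM in C56BL6 and 0.399 CPM in wild mice, and Dcn was as low as 0.775 and 0.217 CPM there. In A. cahirinus Pdgfra was at 10.8 to 148 CPM. The keratinocyte gene Krt14 was at 134 to 435 CPM in the C56BL6 replicate 1 libraries and at most 0.08 CPM in the other C56BL6 libraries. The 4 skeletal muscle markers had summed levels (in CPM, for C56BL6, wild and A. cahirinus libraries in turn) of 4.96 to 287, 1.88 to 918 and 638 to 5960.0; of these Acta1 alone was at 4.96 to 287, 1.88 to 918 and 556 to 5190.0 CPM, and Myod1 at 0 to 0.132, 0 to 0.0656 and 31.1 to 184 CPM. The leukocyte markers had summed levels (in CPM, for C56BL6, wild and A. cahirinus libraries in turn) of 3.31 to 30.1, 2.34 to 19.5 and 0.893 to 4.74, with Lyz2 at up to 28.9 CPM in C56BL6 and 16.9 CPM in wild mice and Ptprc at up to 0.182, 1.18 and 0.112 CPM. Lyz2 had no row in the A. cahirinus table, so the sum there covers 4 of the 5 markers and cannot be set against the mouse sums. Genes on in all libraries of 1 wild animal number and off in all of another numbered 52 for numbers 2 and 3 at 12 d but 0 for numbers 1 and 4; across times, 12 d number 1 gave 0 against 24 h number 4 and 33 against 24 h number 1. By this count the 12 d wild libraries of number 1 could not be told from number 4, so n = 4 counts libraries there and not certainly animals. C56BL6 numbers 3 and 4 also gave 0 at both times, where other C56BL6 pairs gave 3 to 22. A. cahirinus pairs gave 0 or 1, so the count could not tell those animals apart either. Counts and fold changes within wild mice at 12 d are also given without number 1.

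The genes that recur below lie, in GRCm39 as the mouse table gives it, at chr12:24758240-24764145 (plus strand) for Rrm2, chr11:98798627-98814766 (plus strand) for Cdc6, chr8:23716632-23727675 (minus strand) for Gins4, chr10:128067934-128088810 (plus strand) for Timeless and chr4:126450728-126487696 (plus strand) for Clspn, with counts over all annotated exons. Before irradiation the members spanned a wide range of levels. At 24 h in untreated cells, levels per kb of transcript (RPKM) ran from 0.388 to 79.1 with a median of 6.24 in C56BL6 mice, from 0.431 to 61.1 (median 5.5) in wild mice and from 3.79 to 92 (median 11.2) in A. cahirinus. Rrm2, the small subunit of ribonucleotide reductase, had the highest level in C56BL6 mice, 79.1 ± 9.8 RPKM (SD, n = 4), and in wild mice, 61.1 ± 39.6 RPKM (SD, n = 4). In A. cahirinus the sliding clamp Pcna led with 92 ± 14.9 RPKM (SD, n = 4), ahead of Rrm2 at 63.7 ± 14.3 RPKM (SD, n = 4). Orc1 and Mcm10 were among the 4 lowest members in all 3 populations. The flap endonuclease Fen1 was the lowest in both mouse populations (0.388 ± 0.072 RPKM in C56BL6, SD, n = 4), where 84.2% of its exon bases overlap genes of the other strand. The counting ignored strand and left out reads in overlapping genes, so mouse levels of Fen1, Gins2 (67.3% of exon bases shared) and Chaf1a (52.5%) are uncertain, and so is Tk1 in A. cahirinus (25.7%).

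**Figure D1:**
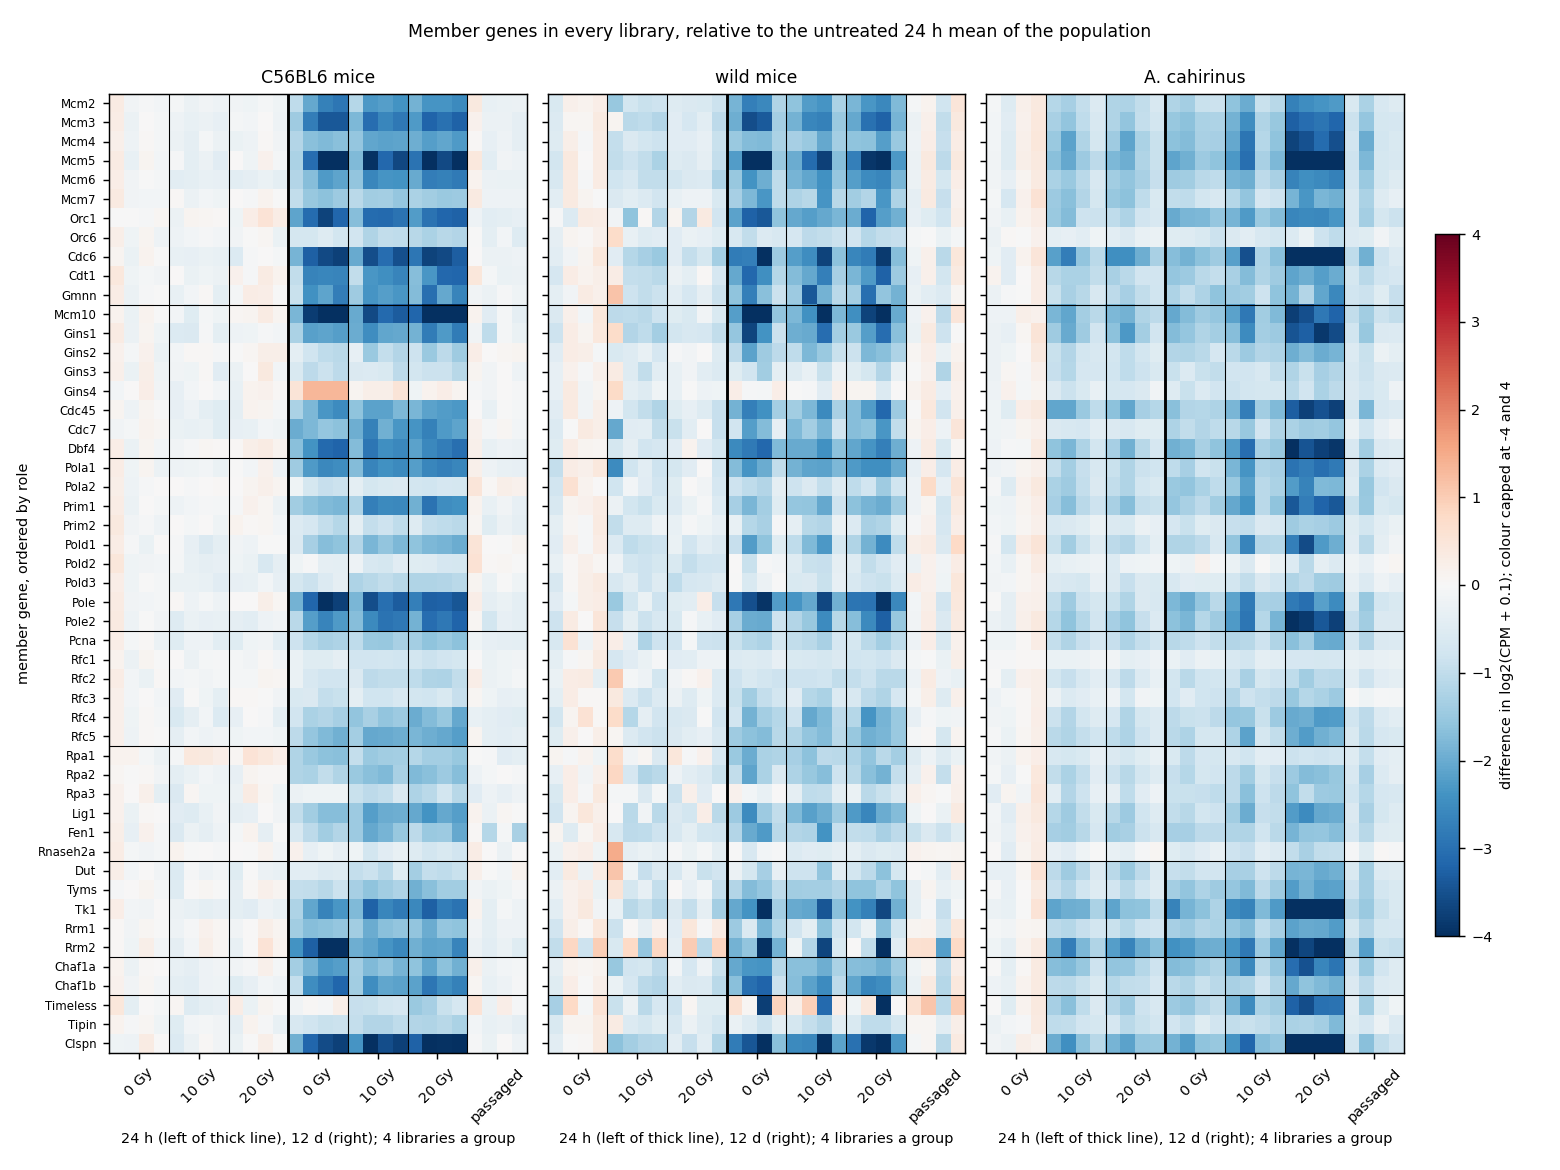
Each row is a member gene and each column a library; colour is the difference in log2(CPM + 0.1) from the mean of the untreated 24 h libraries of the same population, capped at -4 and 4, with thin lines between groups of 4 and a thick line between 24 h and 12 d. Cdc6 and Clspn are low in the 12 d libraries of all 3 populations that were not passaged, and lowest in A. cahirinus at 20 Gy, where Cdc6 was at 0.219 to 0.509 CPM.

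At 24 h, replication genes were lower after irradiation in A. cahirinus. At 20 Gy, 32 of 50 members fell and 0 rose (adjusted p under 0.05, edgeR's quasi-likelihood test with Benjamini-Hochberg adjustment over all genes), where 2.7% of all 13146 genes tested fell. The members' median log2 fold change was -0.94, against 0.03 over all genes tested, and 46 members were lower in all 4 pairs of libraries with the same replicate number. The share of all genes lower in all 4 pairs was not computed, so that count has no background to set it against. At 10 Gy, 37 of 50 fell (all genes 3.1%), with a median of -1.0; both doses share the untreated libraries. Replicate numbers stand for animals whose cells recur across groups; with the number as a block, 47 members passed at 20 Gy (all genes 10.8% lower). Without replicate 1, 2, 3 or 4 in turn, 0, 40, 0 and 21 members passed at 20 Gy and 0, 43, 0 and 31 at 10 Gy. Of 13093 to 13286 genes tested in those fits at 20 Gy, 8, 670, 3 and 247 passed. At 10 Gy 0, 889, 0 and 328 passed, of 13037 to 13135 tested. The median log2 fold change by role, with the range over members, was -1.11 (-2.01 to -0.38) for licensing, -1.01 (-1.55 to -0.50) for firing, -0.87 (-1.2 to -0.27) for polymerases and primase and -0.69 (-0.97 to -0.25) for the clamp and its loader. It was -0.67 (-1.04 to -0.17) for single-strand binding and maturation, -1.04 (-2.11 to -0.80) for nucleotide supply, -1.11 (-1.27 to -0.95) for chromatin assembly and -1.02 (-1.76 to -0.85) for fork protection. The 18 members that did not pass at 20 Gy were Mcm7, Orc6, Gins1, Gins2, Gins4, Pola2, Prim2, Pold1, Pold2, Pole2, Rfc1, Rfc2, Rfc3, Rpa1, Rpa3, Lig1, Rnaseh2a and Dut.

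Of the 11 licensing genes, 9 fell at 20 Gy. Mcm5, a subunit of the helicase ring, had 56, 43.8, 73.4 and 81.9 CPM in the untreated libraries of replicates 1 to 4 and 17.6, 16, 27.1 and 33.3 CPM at 20 Gy (log2 fold change -1.43, SE 0.28, adjusted p = 0.027). The loading factor Cdc6 went from 14.9, 12.2, 18.8 and 23.6 CPM to 3.01, 2.97, 4.32 and 6.8 CPM (log2 fold change -2.01, SE 0.31, adjusted p = 0.012). For both genes every irradiated library lay below every untreated one. Gmnn, the inhibitor of Cdt1, had 12.5, 14.4, 14.5 and 18.3 CPM untreated and 7.07, 5.83, 7.46 and 8.46 CPM at 20 Gy (log2 fold change -1.04, SE 0.16, adjusted p = 0.011), again without overlap.

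Among the 8 genes of origin firing, 5 fell. Cdc45, which travels with the helicase, had 13.8, 11, 18.5 and 20.2 CPM untreated and 4.87, 3.56, 6.13 and 6.93 CPM at 20 Gy (log2 fold change -1.55, SE 0.26, adjusted p = 0.015), and the groups did not overlap. 4 of 9 polymerase and primase genes fell. Pole, the catalytic subunit of the leading-strand polymerase epsilon, had 30.1, 23.7, 33.8 and 35.2 CPM untreated and 16.5, 13.1, 20.1 and 19.3 CPM at 20 Gy (log2 fold change -0.82, SE 0.17, adjusted p = 0.032), with every irradiated library below every untreated one. Pold2, an accessory subunit of polymerase delta, had 39.8, 35.1, 45.6 and 54.2 CPM untreated and 29.4, 37.3, 38.6 and 39.2 CPM at 20 Gy (log2 fold change -0.27, SE 0.15, adjusted p = 0.40); its groups overlapped.

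3 of 6 clamp and clamp loader genes fell. Pcna had 99.8, 100.5, 116 and 139 CPM untreated and 59.6, 47.6, 58 and 66.5 CPM at 20 Gy (log2 fold change -0.97, SE 0.14, adjusted p = 0.0083), without overlap. Rfc1, the large subunit of the clamp loader and the member that changed least at 10 Gy, had 95.1, 96.1, 102.2 and 101.2 CPM untreated, 82.7, 81.1, 84.5 and 88.7 CPM at 10 Gy (log2 fold change -0.22, SE 0.06, adjusted p = 0.072) and 88.9, 75.3, 79.2 and 86 CPM at 20 Gy (log2 fold change -0.25, SE 0.07, adjusted p = 0.10). Its irradiated libraries were all below its untreated ones at both doses. Among the 6 genes of single-strand binding and lagging-strand maturation, 2 fell. The ligase Lig1, which seals Okazaki fragments, had 71.9, 57, 89.95 and 102.3 CPM untreated and 35.9, 28.6, 44.9 and 54.7 CPM at 20 Gy (log2 fold change -0.96, SE 0.23, adjusted p = 0.065). Rpa3, the smallest subunit of the single-strand binding complex, had 6.17, 9.11, 7.74 and 12.1 CPM untreated and 6.67, 4.15, 6.2 and 7.35 CPM at 20 Gy (log2 fold change -0.52, SE 0.24, adjusted p = 0.31). Groups overlapped for Rpa3 and did not for Lig1. Rnaseh2a, a subunit of the nuclease that removes ribonucleotides from DNA, had the smallest difference at 20 Gy, 26.5, 19, 28.1 and 32.3 CPM against 21.2, 19.9, 25 and 27.5 CPM (log2 fold change -0.17, SE 0.17, adjusted p = 0.67).

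4 of 5 nucleotide supply genes fell, Rrm2 furthest of all members. Rrm2 had 166, 144, 206 and 239 CPM untreated, 45.9, 27.2, 53.2 and 81.1 CPM at 10 Gy (log2 fold change -1.86, SE 0.31, adjusted p = 0.015) and 39.9, 29.9, 46.5 and 57.8 CPM at 20 Gy (log2 fold change -2.11, SE 0.23, adjusted p = 0.0037). Every irradiated library was below every untreated one. The thymidine kinase Tk1 had 25.5, 24.2, 29.3 and 43.7 CPM untreated and 6.8, 9.55, 9.73 and 14.8 CPM at 20 Gy (log2 fold change -1.57, SE 0.26, adjusted p = 0.016). Both chromatin assembly genes and all 3 fork protection genes fell. Chaf1a, the large subunit of the factor that deposits histones on new DNA, had 27.3, 21.3, 28.4 and 35.9 CPM untreated and 9.27, 9.46, 12.4 and 15.5 CPM at 20 Gy (log2 fold change -1.27, SE 0.21, adjusted p = 0.014). Clspn, the checkpoint mediator claspin, had 21.7, 20.3, 27.8 and 26.1 CPM untreated and 6.43, 5.29, 8.07 and 8.29 CPM at 20 Gy (log2 fold change -1.76, SE 0.17, adjusted p = 0.0031). For Tk1, Chaf1a and Clspn the groups did not overlap. The 4 skeletal muscle markers summed to 638 to 1380.0 CPM untreated and 897 to 1640.0 CPM at 20 Gy, and their part in the result was not tested. Of these markers, Ckm was only at 0.0677 to 4.39 CPM over all A. cahirinus libraries. Of 9 marker lists of cell types, 1 had summed levels that did not overlap between untreated and 20 Gy libraries, given here in that order: endothelial (0.583 to 0.723 and 1.02 to 1.77 CPM).

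In mice at 24 h no member passed the threshold at either dose by edgeR without a block. In C56BL6 mice at 20 Gy the counts were 7 at an unadjusted p under 0.05, where 9.82% of all genes did, and 1 by DESeq2, where 1.86% of all genes did. At 10 Gy the counts were 14 at an unadjusted p under 0.05, where 7.82% of all genes did, and 0 by DESeq2, where 1.05% of all genes did. In wild mice the counts at 20 Gy were 21 at an unadjusted p under 0.05, where 5.91% of all genes did, and 1 by DESeq2, where 0.763% of all genes did. At 10 Gy the counts were 19 at an unadjusted p under 0.05, where 4.18% of all genes did, and 4 by DESeq2, where 0.666% of all genes did. By the adjusted p of edgeR 0.0895% and 0.007% of all genes passed in C56BL6 mice at 20 and 10 Gy, and 0% in wild mice at either dose. The median log2 fold change of the members was -0.02 at 20 Gy and -0.20 at 10 Gy in C56BL6 mice, and -0.47 and -0.56 in wild mice. With the replicate block, C56BL6 mice had 1 member higher (Rpa1) and 7 lower at 20 Gy (all genes 8.2% and 9.45%) and 16 lower at 10 Gy (all genes 6.11%). Wild mice had 18 lower at 20 Gy (all genes 5.19%) and 0 at 10 Gy (all genes 0%).

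The licensing genes Mcm5 and Cdc6 did not pass in C56BL6 mice at 24 h by edgeR without a block. With the block both passed at 10 Gy and neither at 20 Gy. Mcm5 had 76.4, 49.5, 65.5 and 57.1 CPM untreated and 62.6, 54.3, 69.8 and 57.8 CPM at 20 Gy (log2 fold change -0.02, SE 0.14, adjusted p = 0.98), and Cdc6 had 15.1, 11.6, 15.4 and 13.8 CPM and 9.41, 13.4, 14.2 and 13.2 CPM (log2 fold change -0.15, SE 0.15, adjusted p = 0.82). Both pairs of groups overlapped. The lowest fold change at 20 Gy was that of Pold2, 31.1, 20.3, 20.5 and 21 CPM untreated against 20.1, 18.8, 14.6 and 17.8 CPM (log2 fold change -0.38, SE 0.16, adjusted p = 0.50; adjusted p = 0.0084 with the block); the replicate 1 untreated library, the one with keratin genes, was its highest, and the groups did not overlap. Rpa1, the large subunit of the single-strand binding complex, was the highest at both doses: 163, 163, 139.6 and 125 CPM untreated, 138, 198, 191 and 178 CPM at 10 Gy (log2 fold change 0.27, SE 0.13, adjusted p = 0.70) and 153, 213, 198 and 176 CPM at 20 Gy (log2 fold change 0.33, SE 0.12, adjusted p = 0.42; adjusted p = 0.011 with the block). Rpa1 was lower in replicate 1 after irradiation than before it and higher in the other 3 replicates. At 10 Gy the lowest was Gins1, with 7.18, 4.84, 6.25 and 5.04 CPM untreated and 3.94, 3.82, 5.54 and 4.32 CPM (log2 fold change -0.39, SE 0.18, adjusted p = 0.68), and its groups overlapped.

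In wild mice the values spread widely between animals. Cdc6, the lowest member at 20 Gy, had 7.84, 9.57, 11.3 and 14.5 CPM untreated and 7.74, 5.4, 6.45 and 4.0 CPM at 20 Gy (log2 fold change -0.83, SE 0.26, adjusted p = 0.70; adjusted p = 0.032 with the block), with groups apart and the irradiated library lower in 4 of 4 pairs. Rrm2 split the animals, with 71, 249.7, 78.6 and 278 CPM untreated and 110.0, 285, 66.5 and 253 CPM at 20 Gy (log2 fold change 0.13, SE 0.61, adjusted p = 1). Replicates 2 and 4 were far above replicates 1 and 3 in both groups. At 10 Gy, Clspn had 15.2, 19.9, 20.8 and 26.7 CPM untreated and 6.47, 7.78, 8.93 and 9.15 CPM (log2 fold change -1.31, SE 0.23, adjusted p = 0.76), with every irradiated library below every untreated one. The highest member at 10 Gy was Rnaseh2a, 19.1, 25.7, 27.9 and 20.3 CPM untreated against 64.8, 17.8, 19.2 and 17.8 CPM (log2 fold change 0.40, SE 0.46, adjusted p = 0.94); its high value is the shallow replicate 1 library, and without replicate 1 its log2 fold change was -0.38.

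**Figure D2:**
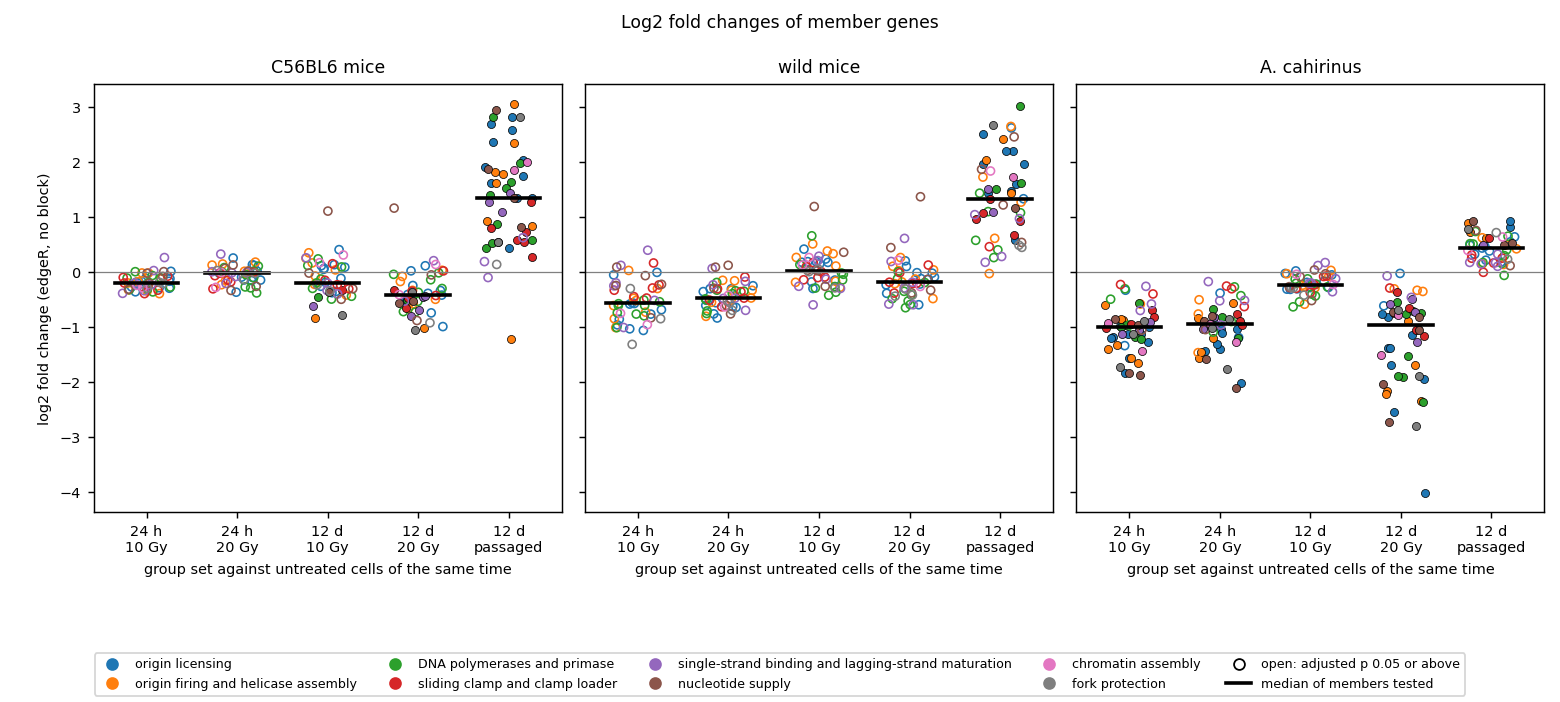
Log2 fold changes (vertical axis) of the members against untreated cells of the same time, for the 3 populations, with points coloured by role, filled where the adjusted p was under 0.05 (edgeR, no block), and a bar at the median. Only A. cahirinus has filled points at 24 h, and the medians with passaging were 1.35 (C56BL6), 1.34 (wild) and 0.43 (A. cahirinus).

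The difference between populations was tested as an interaction. Of 50 members, 21 had a lower change at 20 Gy and 24 h in A. cahirinus than in C56BL6 mice and 0 a higher one, where 1.89% of all genes were lower. The median difference in log2 fold change was -0.90, and with the block 44 members passed (all genes 7.98% lower). Rrm2 differed most, by -2.25 (SE 0.30, adjusted p = 0.0022), and Pold2 was the only member with a positive difference, 0.10 (SE 0.23, adjusted p = 0.96). Without number 1, 2, 3 or 4 in both populations, 9, 10, 0 and 10 members passed. The counts over all genes in those fits are not given, so these member counts have no background to set them against. Against wild mice 0 members passed by edgeR (all genes 0%; 16 at an unadjusted p under 0.05, where 5.16% of all genes did, and 0 by DESeq2, where 0.868% of all genes did), and 17 were lower with the block (all genes 4.34%). The median difference from wild mice was -0.50; Rrm2 was again lowest, at -2.24 (SE 0.70, adjusted p = 0.43 and 3.3e-06 with the block), and Pold2 highest, at 0.48 (SE 0.20, adjusted p = 0.87).

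At 12 d the untreated passaged cells were compared with untreated cells of the same time. In C56BL6 mice, 45 of 50 members were higher in passaged than in untreated cells and 1 was lower, where 24.2% of all genes were higher and 25.5% lower. The median log2 fold change was 1.35 (all genes -0.02), and all 11 licensing genes, all 9 polymerase and primase genes, all 6 clamp genes, all 5 nucleotide genes and both chromatin assembly genes rose. Mcm5 had 25.4, 7.4, 3.47 and 3.43 CPM untreated and 81.4, 45.3, 55.8 and 53.5 CPM passaged (log2 fold change 2.58, SE 0.66, adjusted p = 0.012), and Cdc6 had 3.74, 1.35, 1.05 and 0.947 CPM and 14.1, 11.8, 11.9 and 12.1 CPM (log2 fold change 2.82, SE 0.44, adjusted p = 0.0015). The untreated library of replicate 1 was the highest of its group for both and still below all passaged libraries. Mcm10, which helps to activate the helicase, rose most, from 5.4, 1.31, 0.655 and 0.914 CPM to 21.5, 14.1, 18.3 and 15 CPM (log2 fold change 3.06, SE 0.65, adjusted p = 0.0055).

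Pole went from 12.2, 5.0, 2.75 and 3.33 CPM to 54.4, 35.6, 37.9 and 35.2 CPM (log2 fold change 2.81, SE 0.47, adjusted p = 0.0021), Rrm2 from 41.2, 22.4, 13.6 and 11.9 CPM to 184, 161, 182 and 157 CPM (log2 fold change 2.94, SE 0.39, adjusted p = 0.00076) and Clspn from 7.52, 3.14, 2.33 and 2.06 CPM to 28, 23.7, 29 and 24.9 CPM (log2 fold change 2.82, SE 0.41, adjusted p = 0.0011). None of these groups overlapped. Some subunits changed less: Rfc1 went from 62.3, 54.3, 54.2 and 59 CPM to 77.3, 63.6, 67.8 and 68.1 CPM (log2 fold change 0.27, SE 0.08, adjusted p = 0.028). Pold2 had 20.1, 21.8, 17.8 and 17.3 CPM untreated and 33.8, 23.4, 24.2 and 22.6 CPM passaged (log2 fold change 0.44, SE 0.15, adjusted p = 0.039), also without overlap. Rpa3 had 12.6, 13.2, 13.3 and 13.1 CPM untreated and 10.9, 13, 11.8 and 12.9 CPM passaged (log2 fold change -0.10, SE 0.09, adjusted p = 0.41), with overlap, and did not pass, nor did Fen1, Rnaseh2a and Timeless. Gins4, a subunit of the GINS complex, was the exception in direction: 33, 57.9, 58.6 and 58.5 CPM untreated against 22.3, 21.2, 23.6 and 22.5 CPM passaged (log2 fold change -1.21, SE 0.18, adjusted p = 0.0013). Replicate 1 was its lowest untreated library and lay above every passaged one. The median log2 fold change by role, with the range over members, was 1.91 (0.43 to 2.82) for licensing, 1.7 (-1.21 to 3.06) for firing, 1.41 (0.44 to 2.81) for polymerases and primase and 0.66 (0.27 to 1.28) for the clamp and its loader. It was 0.86 (-0.10 to 1.43) for single-strand binding and maturation, 1.35 (0.54 to 2.94) for nucleotide supply, 1.92 (1.85 to 2.0) for chromatin assembly and 0.55 (0.14 to 2.82) for fork protection. Of 9 marker lists of cell types, 6 had summed levels that did not overlap between untreated and passaged libraries, given here in that order: endothelial (6.31 to 19.6 and 3.84 to 5.84 CPM), leukocyte (7.95 to 30.1 and 3.31 to 5.3 CPM), melanocyte (3.32 to 3.75 and 0.515 to 1.2 CPM), pericyte and smooth muscle (1830.0 to 5320.0 and 6340.0 to 6680.0 CPM), adipocyte (4.7 to 20.5 and 0.182 to 0.828 CPM) and skeletal muscle (4.96 to 7.8 and 86.9 to 155 CPM). Their part in the result was not tested.

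In wild mice passaged cells had 25 members higher and 0 lower (all genes 5.51% higher) with a median of 1.34, and 40 higher with the block (all genes 15.1%). Without number 1, 0 members passed (35 with the block, all genes 6.8% higher) with a median of 1.38; without number 2, 3 or 4 the counts were 4, 30 and 0. Of 13861 to 14168 genes tested without number 1, 2, 3 or 4 and without the block, 0, 419, 2118 and 0 passed. Pole rose most, from 4.58, 2.88, 2.13 and 7.18 CPM to 31.5, 39.7, 19.9 and 45.9 CPM (log2 fold change 3.02, SE 0.44, adjusted p = 0.013; 3.1 without number 1), and its groups did not overlap. Gins4 was the lowest, 32.3, 26.2, 25.7 and 32.5 CPM against 29.5, 33.9, 21.2 and 30.5 CPM (log2 fold change -0.03, SE 0.17, adjusted p = 0.94; 0.01 without number 1), and overlapped. Of 9 marker lists of cell types, 2 had summed levels that did not overlap between untreated and passaged libraries, given here in that order: leukocyte (7.02 to 13.9 and 2.34 to 5.66 CPM) and melanocyte (2.22 to 3.86 and 1.08 to 1.32 CPM). Their part in the result was not tested. In A. cahirinus 11 members rose and 0 fell (all genes 12.1% higher), with a median of 0.43. The block gave 31 (all genes 23.2%), and leaving out number 1, 2, 3 or 4 gave 0, 35, 0 and 1. Counts over all genes are not given for the fits that left out a number, so those member counts have no background. The 11 were Mcm5, Orc1, Mcm10, Cdc7, Dbf4, Rfc3, Fen1, Tyms, Rrm1, Rrm2 and Clspn. There Rrm2 rose most, from 34.6, 37.7, 47.1 and 47.8 CPM to 85.1, 40.3, 99.9 and 96.5 CPM (log2 fold change 0.93, SE 0.27, adjusted p = 0.035), with the replicate 2 passaged library within the untreated range. Pold2 was the lowest, 38.7, 37, 48.2 and 41.2 CPM against 38.5, 34.3, 41.9 and 45.6 CPM (log2 fold change -0.06, SE 0.11, adjusted p = 0.74), and overlapped. Of 9 marker lists of cell types, 3 had summed levels that did not overlap between untreated and passaged libraries, given here in that order: fibroblast (37900.0 to 46600.0 and 26300.0 to 37200.0 CPM), leukocyte (0.893 to 2.01 and 2.8 to 3.99 CPM) and adipocyte (11.8 to 20.1 and 2.97 to 7.45 CPM). Their part in the result was not tested.

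Passaging changed the members less in A. cahirinus than in C56BL6 mice. The interaction called 27 of 50 members lower and 1 higher (all genes 14.3% and 13.4%), with a median difference of -1.0. Mcm10 had the lowest difference, -2.46 (SE 0.67, adjusted p = 0.015), and Gins4 the highest, 1.34 (SE 0.25, adjusted p = 0.0016). The count was 32, 16, 5 and 8 without number 1, 2, 3 or 4 in both populations. Counts over all genes are not given for those fits, so a background is lacking. In A. cahirinus Mcm10 had 3.54, 4.39, 5.49 and 5.01 CPM untreated and 7.52, 5.6, 8.1 and 7.45 CPM passaged, and Gins4 had 9.89, 7.71, 9.68 and 8.4 CPM and 9.67, 8.17, 9.39 and 12.5 CPM. The Gins4 groups overlapped in A. cahirinus, and the Mcm10 groups did not.

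**Figure D3:**
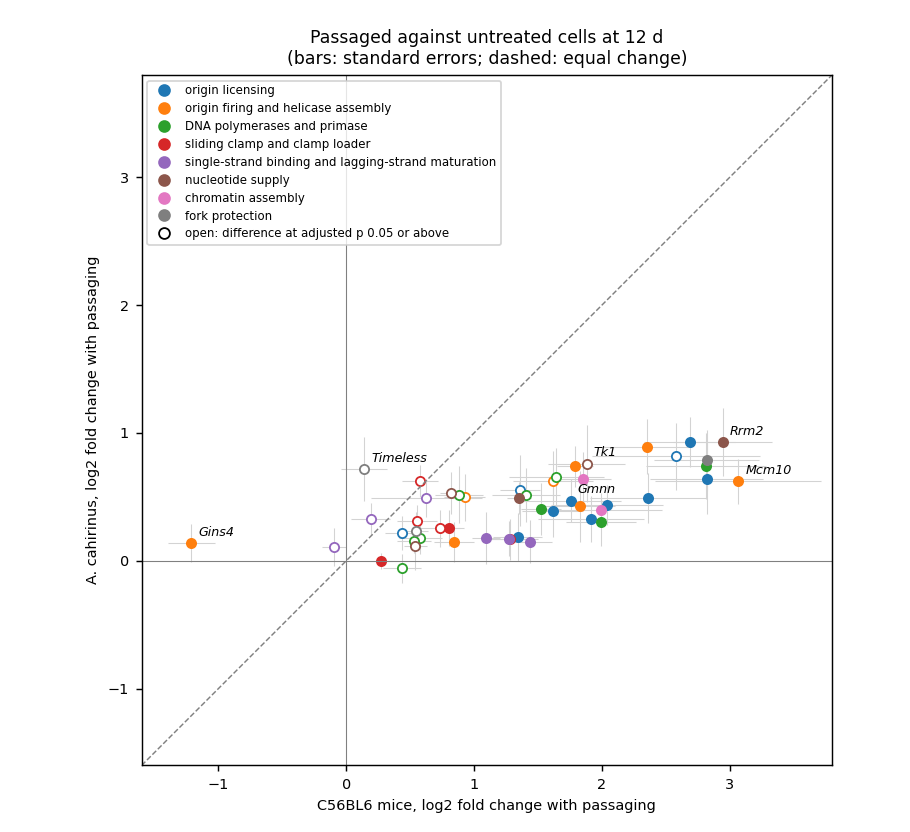
Log2 fold change of each member with passaging at 12 d in C56BL6 mice (horizontal axis) and A. cahirinus (vertical axis), with standard errors; points are filled where the difference between populations had an adjusted p under 0.05. Gins4, Timeless, Rpa3, Rnaseh2a and Rfc3 lie above the dashed line of equal change and the other members below it, and Gins4 is the only filled point above the line among 28.

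At 12 d after 20 Gy, replication genes were again lower in A. cahirinus. In all 42 of 50 members fell and 0 rose (all genes 18.1% lower), with a median log2 fold change of -0.96 against 0.00 over all genes, and 31, 46, 29 and 35 passed without replicate 1, 2, 3 or 4. Of 13479 to 13530 genes tested in those fits, 1626, 6678, 1660 and 2358 passed. By role 9 of 11 licensing genes, 5 of 8 firing genes, 9 of 9 polymerase and primase genes, 5 of 6 clamp genes and 4 of 6 single-strand and maturation genes fell, as did all genes of nucleotide supply, chromatin assembly and fork protection. Cdc6 fell furthest: it had 5.17, 4.45, 5.39 and 6.3 CPM untreated, 3.71, 1.39, 7.07 and 5.19 CPM at 10 Gy and 0.219, 0.222, 0.509 and 0.335 CPM at 20 Gy (log2 fold change -4.01, SE 0.30, adjusted p = 0.00016). All 4 libraries at 20 Gy were below all others. Mcm5 had 14.1, 16.2, 22.6 and 20.1 CPM untreated and 2.31, 2.82, 3.75 and 3.55 CPM at 20 Gy (log2 fold change -2.54, SE 0.21, adjusted p = 0.00023), and Cdc45 had 4.76, 6.73, 6.9 and 6.56 CPM and 1.47, 1.08, 1.29 and 1.06 CPM (log2 fold change -2.34, SE 0.20, adjusted p = 0.00022), both without overlap.

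Among elongation genes, Pole had 8.64, 7.35, 10.4 and 14.3 CPM untreated and 4.22, 3.64, 6.72 and 5.22 CPM at 20 Gy (log2 fold change -1.03, SE 0.26, adjusted p = 0.019), and Pcna had 51.8, 55.5, 63.4 and 56.7 CPM and 35.1, 43.6, 28.6 and 27.8 CPM (log2 fold change -0.75, SE 0.15, adjusted p = 0.0062). Rfc1 had 82, 72, 83.2 and 80.9 CPM untreated and 61.5, 61.3, 61 and 61.8 CPM at 20 Gy (log2 fold change -0.37, SE 0.07, adjusted p = 0.007). None of these 3 pairs of groups overlapped, and the 4 Rfc1 values at 20 Gy were nearly equal. Lig1 went from 39.4, 36.2, 46.7 and 44.2 CPM to 16.6, 13.6, 19 and 19.6 CPM (log2 fold change -1.27, SE 0.15, adjusted p = 0.00066), Rrm2 from 34.6, 37.7, 47.1 and 47.8 CPM to 10.01, 14.6, 10.6 and 5.75 CPM (log2 fold change -2.03, SE 0.26, adjusted p = 0.00098) and Tk1 from 4.63, 8.21, 9.54 and 12.6 CPM to 1.35, 1.49, 1.31 and 1.15 CPM (log2 fold change -2.72, SE 0.30, adjusted p = 0.00058). Clspn went from 6.28, 4.95, 7.72 and 8.31 CPM to 1.13, 0.697, 1.1 and 0.978 CPM (log2 fold change -2.79, SE 0.24, adjusted p = 0.00026), and Chaf1a from 8.34, 8.57, 10.5 and 12 CPM to 3.28, 2.38, 4.45 and 3.6 CPM (log2 fold change -1.51, SE 0.22, adjusted p = 0.0018). Every one of these 5 genes was lower in each 20 Gy library than in any untreated one.

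Other members changed less. Orc6, the sixth subunit of the origin recognition complex, had 9.18, 9.13, 8.48 and 7.05 CPM untreated and 8.88, 10.7, 7.34 and 6.34 CPM at 20 Gy (log2 fold change -0.02, SE 0.17, adjusted p = 0.94), and the groups overlapped. Gmnn had 6.18, 7.62, 6.21 and 4.78 CPM and 3.91, 6.46, 3.45 and 2.4 CPM (log2 fold change -0.61, SE 0.29, adjusted p = 0.14; adjusted p = 0.011 with the block), and Rpa3 had 4.52, 4.59, 4.5 and 4.17 CPM and 2.72, 4.21, 3.03 and 2.96 CPM (log2 fold change -0.46, SE 0.16, adjusted p = 0.064; 0.039 with the block). Replicate 2 was the highest 20 Gy library for Orc6, Gmnn and Rpa3, and the Gmnn and Rpa3 groups overlapped as well. The members past the threshold neither without nor with the block were Orc6, Gins3, Gins4, Cdc7 and Rpa1. The median log2 fold change by role, with the range over members, was -1.37 (-4.01 to -0.02) for licensing, -1.29 (-2.34 to -0.30) for firing, -1.03 (-2.37 to -0.55) for polymerases and primase and -0.70 (-1.16 to -0.29) for the clamp and its loader. It was -0.53 (-1.27 to -0.07) for single-strand binding and maturation, -1.06 (-2.72 to -0.72) for nucleotide supply, -1.14 (-1.51 to -0.77) for chromatin assembly and -1.9 (-2.79 to -0.68) for fork protection. The 4 skeletal muscle markers summed to 1530.0 to 2940.0 CPM untreated and 1150.0 to 5960.0 CPM at 20 Gy; Myh1 alone was at 177, 53.7, 207 and 159 CPM and 578, 45.4, 754 and 615 CPM. Of 9 marker lists of cell types, 2 had summed levels that did not overlap between untreated and 20 Gy libraries, given here in that order: endothelial (0.584 to 1.93 and 2.81 to 4.91 CPM) and leukocyte (0.893 to 2.01 and 2.31 to 4.74 CPM). Their part in the result was not tested.

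In A. cahirinus at 12 d, 10 Gy gave smaller differences. At 10 Gy 0 members passed by edgeR (all genes 2.87%; 3 at an unadjusted p under 0.05, where 21.8% of all genes did, and 0 by DESeq2, where 11.6% of all genes did), the median was -0.22, and 9 were lower with the block (all genes 13.4%). The lowest was Pola1, the catalytic subunit of polymerase alpha, with 24.6, 20.1, 28.9 and 27 CPM untreated and 14, 9.67, 21.5 and 20.1 CPM at 10 Gy (log2 fold change -0.63, SE 0.23, adjusted p = 0.17; adjusted p = 0.0063 with the block), and the highest was Rpa1, with 48.9, 36, 46.9 and 45.5 CPM and 47.3, 42.9, 55.8 and 54.5 CPM (log2 fold change 0.17, SE 0.11, adjusted p = 0.41). Both overlapped between the groups. Set directly against 10 Gy, 20 Gy had 5 members lower (Mcm5, Cdc6, Gins1, Tk1 and Clspn; all genes 0.442%) and 39 with the block (all genes 9.62%), with a median of -0.76. Replicate 2 at 10 Gy was the lowest of its group for Mcm5, Cdc6, Rrm2 and Clspn. Without number 2, 38 members were lower, and without number 1, 3 or 4 the counts were 0, 0 and 0. No counts over all genes are given for those fits, so the member counts have no background. Cdc6 was again the lowest, -3.73 (adjusted p = 0.042), and Orc6 the highest, -0.04 (adjusted p = 0.94), on the log2 scale; Orc6 had 8.64, 9.71, 8.26 and 7.79 CPM at 10 Gy.

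In C56BL6 mice at 12 d fewer members fell. At 20 Gy 15 of 50 members fell and 0 rose, where 13.6% of all genes fell, with a median of -0.42. The 15 were Mcm4, Orc6, Gins4, Pold3, Rfc1, Rfc2, Rfc4, Rpa2, Rpa3, Lig1, Rnaseh2a, Dut, Tyms, Timeless and Tipin. The block gave 2 higher (Rpa1 and Rrm2) and 25 lower (all genes 23.2% and 24.3%). Replicate 1 held keratin genes and the highest untreated median level over members, though not the highest level of every member. Without replicate 1, 2 rose (Rpa1 and Rrm2) and 18 fell, with a median of -0.29. Without replicate 2, 3 or 4 the counts called were 1, 1 and 4. Of all 15231 genes tested without replicate 1, 2973 rose and 3114 fell. Without replicate 2, 3 or 4 the counts over all genes were 1658, 1092 and 1619, of 15110 to 15223 tested. Timeless, which holds polymerase and helicase together at the fork, fell furthest, from 14, 15.8, 14.8 and 18 CPM to 5.43, 6.03, 8.27 and 9.58 CPM (log2 fold change -1.04, SE 0.19, adjusted p = 0.0073), without overlap. Lig1 had 23.4, 17.6, 14.1 and 14.3 CPM untreated and 11.1, 8.92, 11.4 and 10.2 CPM at 20 Gy (log2 fold change -0.69, SE 0.18, adjusted p = 0.025), Rfc1 had 62.3, 54.3, 54.2 and 59 CPM and 45.3, 42, 44.1 and 46.4 CPM (log2 fold change -0.32, SE 0.07, adjusted p = 0.016) and Rpa3 had 12.6, 13.2, 13.3 and 13.1 CPM and 6.33, 7.04, 8.91 and 6.83 CPM (log2 fold change -0.79, SE 0.12, adjusted p = 0.0039), also without overlap. Of 9 marker lists of cell types, 3 had summed levels that did not overlap between untreated and 20 Gy libraries, given here in that order: fibroblast (35200.0 to 57500.0 and 17600.0 to 23400.0 CPM), melanocyte (3.32 to 3.75 and 1.75 to 2.96 CPM) and adipocyte (4.7 to 20.5 and 0.366 to 1.14 CPM). Their part in the result was not tested.

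The licensing genes Mcm5 and Cdc6 overlapped between these groups. Mcm5 had 7.77, 3.55, 4.91 and 3.09 CPM at 20 Gy (log2 fold change -0.99, SE 0.68, adjusted p = 0.31), and Cdc6 had 1.77, 0.979, 1.05 and 1.31 CPM (log2 fold change -0.42, SE 0.47, adjusted p = 0.55), against the untreated values given above. Rrm2 had the highest fold change, with 41.2, 22.4, 13.6 and 11.9 CPM untreated, 56.4, 50.8, 42.1 and 36.1 CPM at 10 Gy (log2 fold change 1.11, SE 0.38, adjusted p = 0.073) and 57.1, 50.04, 51.5 and 34.6 CPM at 20 Gy (log2 fold change 1.17, SE 0.39, adjusted p = 0.057). It was higher than untreated in 4 of 4 pairs at 20 Gy and 4 of 4 at 10 Gy, while the replicate 1 untreated library lay within the irradiated range. With the block its adjusted p was 0.0041 at 20 Gy and 0.0018 at 10 Gy, and without replicate 1 it was 0.0039 and 0.0033. Rpa1 had 63.7, 52.9, 47.1 and 45.8 CPM untreated and 66.9, 57.7, 57.7 and 51.5 CPM at 20 Gy (log2 fold change 0.21, SE 0.13, adjusted p = 0.25; adjusted p = 0.022 with the block), and its groups overlapped. At 10 Gy 6 of 49 members tested fell and 0 rose (all genes 10.6% lower), or 2 higher (Rpa1 and Rrm2) and 10 lower with the block (all genes 19.2% and 19.7%); 11, 1, 0 and 2 were called without replicate 1, 2, 3 or 4. Of 14928 to 15048 genes tested in those fits, 5366, 1092, 283 and 912 were called. Gins4 was lowest, with 25.2, 27.3, 27.5 and 32.9 CPM (log2 fold change -0.82, SE 0.19, adjusted p = 0.019) below every untreated library. Fen1 was left out by the filter on low counts. Between 20 and 10 Gy 0 members passed by edgeR (all genes 0%; 1 at an unadjusted p under 0.05, where 1.95% of all genes did, and 0 by DESeq2, where 0% of all genes did); Mcm10 was the lowest, with 4.74, 1.49, 2.15 and 1.83 CPM and 2.05, 1.06, 0.944 and 1.01 CPM (log2 fold change -1.0, SE 0.42, adjusted p = 1), and Rrm2 the highest (log2 fold change 0.06, SE 0.18, adjusted p = 1).

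In wild mice at 12 d no member passed by edgeR at 20 Gy (all genes 0.0694%) or 10 Gy (all genes 0.264%). At 20 Gy the counts were 2 at an unadjusted p under 0.05, where 13.8% of all genes did, and 0 by DESeq2, where 4.67% of all genes did. At 10 Gy the counts were 1 at an unadjusted p under 0.05, where 12.3% of all genes did, and 0 by DESeq2, where 4.22% of all genes did. With the block 2 rose (Rrm1 and Rrm2) and 3 fell (Mcm6, Pold3 and Rpa3) at 20 Gy (all genes 7.66% and 7.79%), and 1 rose (Rrm2) and 1 fell (Rpa3) at 10 Gy (all genes 5.96% and 6.72%). With the block and without number 1, a fit added after the data were seen, 0 passed at 20 Gy and 0 at 10 Gy (all genes 2% and 2.52%). The median was -0.18 at 20 Gy and 0.03 at 10 Gy; without number 1 it was -0.21 and 0.03, and 0 and 0 members passed without the block. Over all genes 0 passed in those fits at either dose. Rrm2 was again the highest: 38, 46.9, 4.89 and 38.1 CPM untreated, 125, 62.7, 11 and 91.6 CPM at 10 Gy (log2 fold change 1.19, SE 0.79, adjusted p = 0.61; adjusted p = 0.013 with the block) and 143, 70.4, 8.08 and 101.6 CPM at 20 Gy (log2 fold change 1.37, SE 0.86, adjusted p = 0.54; 0.017 with the block). All 4 pairs were higher at both doses, and the replicate 3 libraries were the lowest in every group. Without number 1 the log2 fold change was 0.90 at 10 Gy and 1.03 at 20 Gy (adjusted p = 0.94 at 20 Gy).

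Pole2, the second subunit of polymerase epsilon, was the lowest member at 20 Gy, with 2.98, 1.87, 1.83 and 4.33 CPM untreated and 2.29, 1.23, 0.712 and 2.62 CPM (log2 fold change -0.65, SE 0.48, adjusted p = 0.62; -0.78 without number 1), and its groups overlapped. Rpa3 was the lowest at 10 Gy, with 13.2, 10.9, 9.54 and 11.8 CPM untreated and 9.23, 5.75, 5.95 and 8.93 CPM (log2 fold change -0.59, SE 0.22, adjusted p = 0.33; -0.63 without number 1; adjusted p = 0.029 with the block), and did not overlap. Mcm5 was scattered between libraries, with 12.8, 2.18, 2.43 and 21.7 CPM untreated and 9.14, 4.06, 3.53 and 12.5 CPM at 20 Gy (log2 fold change -0.38, SE 0.79, adjusted p = 0.89, and -0.36 without number 1). Between doses 0 members passed by edgeR (all genes 0%; 0 at an unadjusted p under 0.05, where 0.251% of all genes did, and 0 by DESeq2, where 0.00687% of all genes did). The block called 1, Mcm5 (all genes 0.251% lower). Without number 1, 0 passed without the block and 0 with it (all genes 0.0538%), and the median was -0.23 in place of -0.18. Pole was the lowest, with 6.53, 8.09, 2.66 and 8.96 CPM at 10 Gy and 4.43, 4.25, 2.17 and 5.62 CPM at 20 Gy (log2 fold change -0.67, SE 0.42, adjusted p = 1; -0.72 without number 1). Fen1 was the highest, with 0.396, 0.375, 0.112 and 0.495 CPM and 0.472, 0.454, 0.356 and 0.437 CPM (log2 fold change 0.31, SE 0.43, adjusted p = 1; 0.32 without number 1), at levels that the overlap of its exons leaves uncertain.

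**Figure D4:**
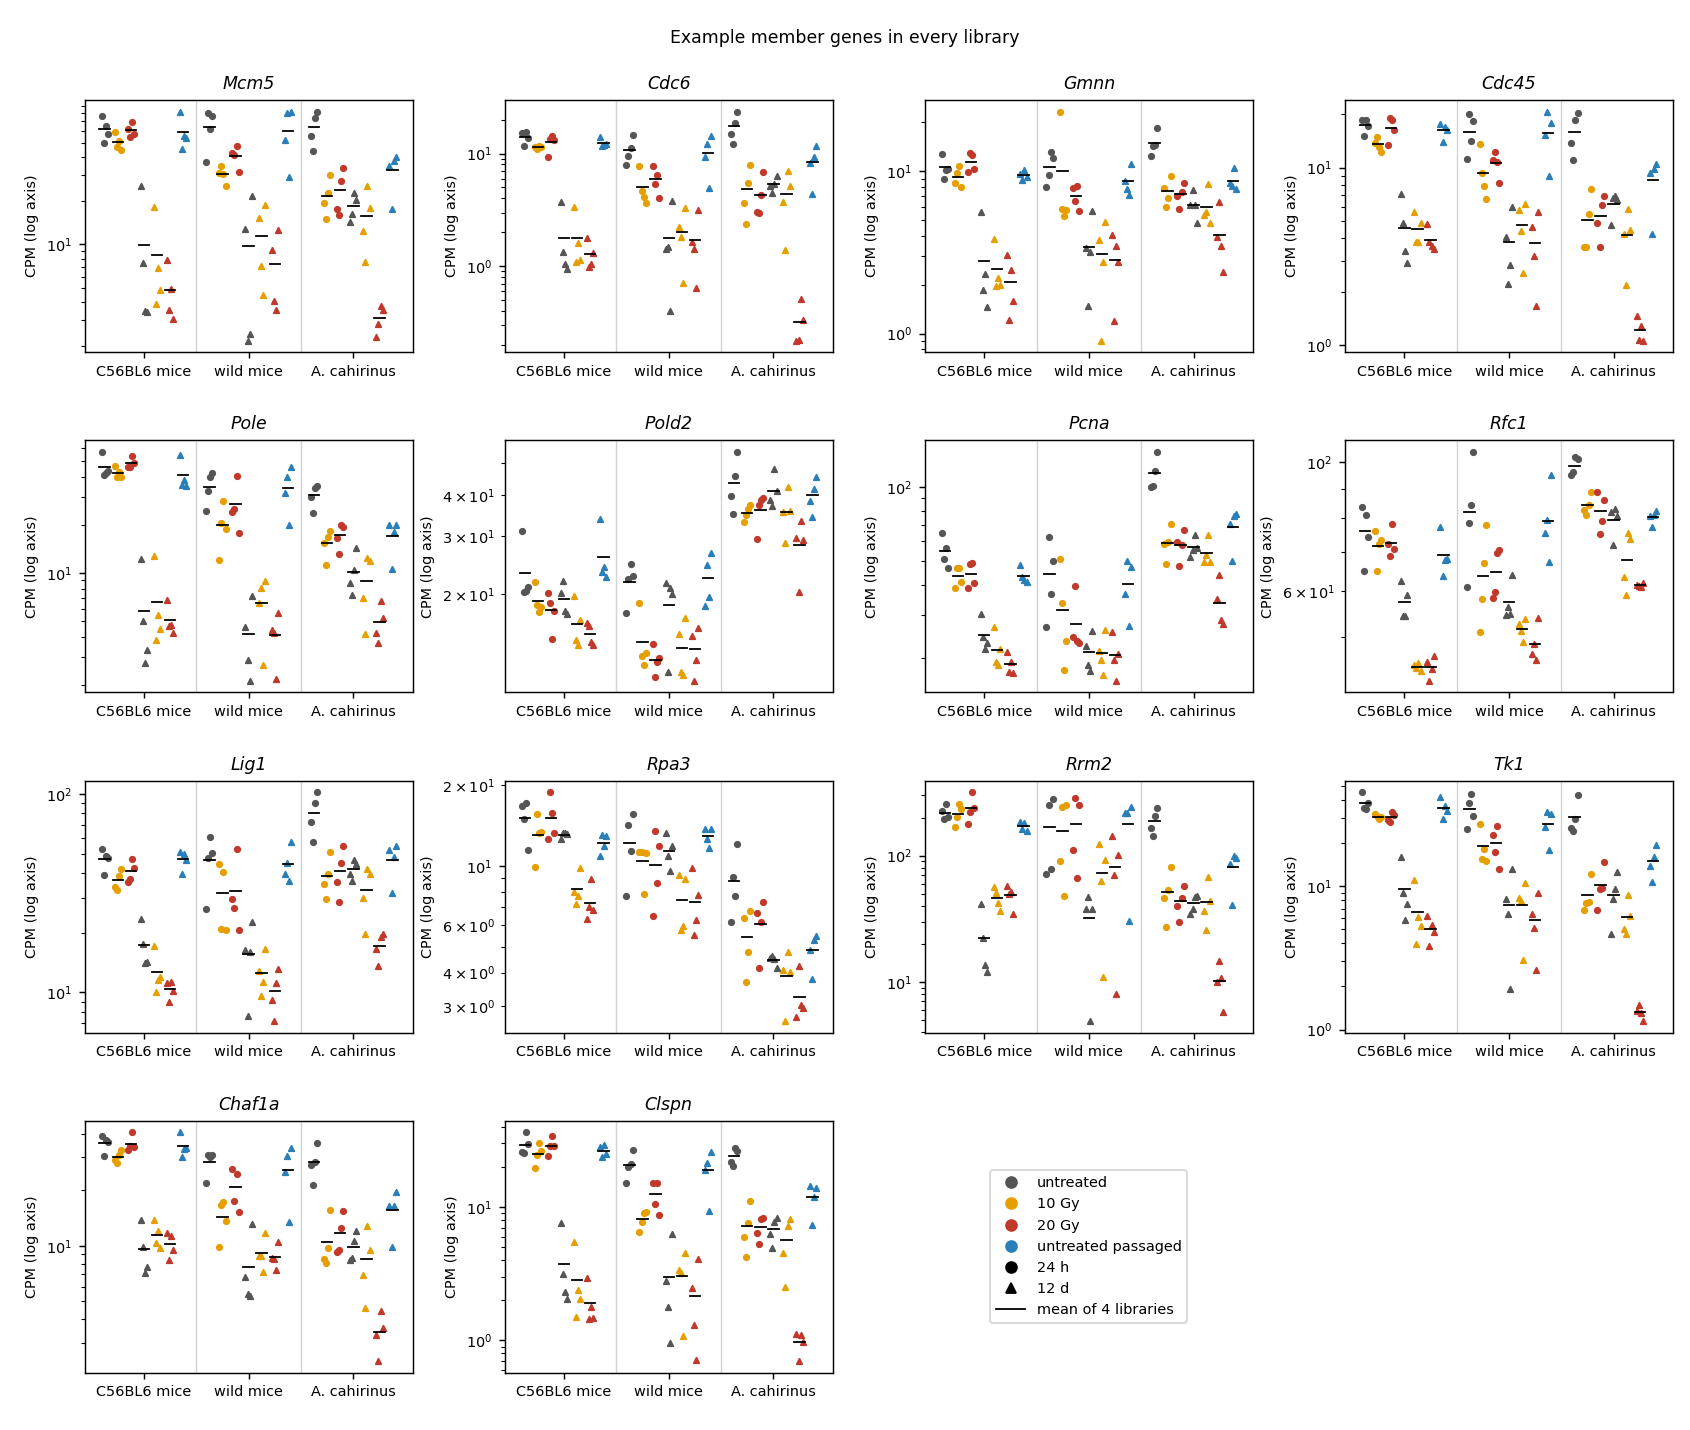
CPM on a log axis for 14 example members in every library, with the 7 groups of each population in the order 0, 10 and 20 Gy at 24 h (circles) and 0, 10, 20 Gy and passaged at 12 d (triangles), and a line at the mean of 4 libraries. In A. cahirinus the 12 d libraries at 20 Gy are the lowest group for Mcm5, Cdc6, Cdc45, Rrm2, Tk1 and Clspn, while in mice Rrm2 at 12 d is higher in irradiated than in untreated cells on average.

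Set against passaged cells, irradiated cells at 12 d were lower for most members in all 3 populations. At 20 Gy 48 of 50 fell in C56BL6 mice (all genes 21.2%), 42 in wild mice (all genes 6.1%) and 48 in A. cahirinus (all genes 23%), and none rose; the medians were -1.73, -1.5 and -1.32. The wild count was 0, 7, 43 and 0 without number 1, 2, 3 or 4, with a median of -1.61 without number 1. Of 14208 to 14496 genes tested in those fits, 0, 246, 1894 and 0 passed in either direction. Clspn was the lowest in both mouse populations. In C56BL6 mice it had 28, 23.7, 29 and 24.9 CPM passaged and 2.96, 1.46, 1.78 and 1.48 CPM at 20 Gy (log2 fold change -3.76, SE 0.24, adjusted p = 2.8e-05), and in wild mice 19.1, 21.5, 9.31 and 26 CPM and 2.47, 1.3, 0.712 and 4.07 CPM (log2 fold change -3.12, SE 0.57, adjusted p = 0.016; -3.2 without number 1), without overlap in either. Gins4 was the highest in both, with 20.6, 25.9, 27.9 and 24.9 CPM at 20 Gy in C56BL6 mice (log2 fold change 0.17, SE 0.10, adjusted p = 0.22) and 29.4, 29.4, 18.5 and 27.4 CPM in wild mice (log2 fold change -0.11, SE 0.20, adjusted p = 0.78; -0.17 without number 1), overlapping the passaged libraries. In A. cahirinus Cdc6 was lowest, with 8.29, 4.34, 9.36 and 11.6 CPM passaged (log2 fold change -4.67, SE 0.42, adjusted p = 0.00015), and Rpa1 highest, with 52, 38.8, 54.4 and 56.9 CPM passaged and 41.1, 42.6, 42 and 43.1 CPM at 20 Gy (log2 fold change -0.26, SE 0.13, adjusted p = 0.14), with overlap for Rpa1 and none for Cdc6. In C56BL6 mice of 9 marker lists of cell types, 7 had summed levels that did not overlap between passaged and 20 Gy libraries, given here in that order: fibroblast (24200.0 to 37700.0 and 17600.0 to 23400.0 CPM), endothelial (3.84 to 5.84 and 7.62 to 30.7 CPM), leukocyte (3.31 to 5.3 and 14.3 to 19.9 CPM), melanocyte (0.515 to 1.2 and 1.75 to 2.96 CPM), pericyte and smooth muscle (6340.0 to 6680.0 and 2340.0 to 4880.0 CPM), Schwann (0.461 to 1.67 and 2.51 to 3.7 CPM) and skeletal muscle (86.9 to 155 and 5.45 to 16 CPM). In wild mice of 9 marker lists of cell types, 3 had summed levels that did not overlap between passaged and 20 Gy libraries, given here in that order: fibroblast (36600.0 to 44800.0 and 17000.0 to 35900.0 CPM), leukocyte (2.34 to 5.66 and 14.4 to 19.5 CPM) and melanocyte (1.08 to 1.32 and 1.99 to 3.28 CPM). In A. cahirinus of 9 marker lists of cell types, 3 had summed levels that did not overlap between passaged and 20 Gy libraries, given here in that order: endothelial (0.35 to 1.92 and 2.81 to 4.91 CPM), melanocyte (1.27 to 1.57 and 1.61 to 2.25 CPM) and adipocyte (2.97 to 7.45 and 9.03 to 43.8 CPM). Their part in the result was not tested.

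The change at 12 d and 20 Gy was lower in A. cahirinus than in C56BL6 mice for 18 members and higher for 0 (all genes 10.7% lower), with a median difference of -0.65; with the block 29 were lower and 2 higher (Orc6 and Gins4; all genes 20.4% and 17.6%). Cdc6 differed most, by -3.61 (SE 0.59, adjusted p = 0.0013), and Rrm2 by -3.19 (SE 0.50, adjusted p = 0.00097). Gins4 was the highest, at 0.68 (SE 0.25, adjusted p = 0.072 and 0.024 with the block). Without number 1, 2, 3 or 4 in both populations 21, 15, 6 and 6 members were called. Against wild mice 5 members were lower (Mcm4, Cdc6, Cdc45, Dbf4 and Chaf1a, all genes 2.18%), 32 with the block (all genes 13.1%), and 0, 2, 4 and 0 without number 1, 2, 3 or 4. For both mouse populations, counts over all genes are not given for the fits that left out a number. The member counts of those fits have no background. Cdc6 was again the lowest, -3.99 (SE 0.82, adjusted p = 0.023), and Orc6 the highest, 0.21 (SE 0.24, adjusted p = 0.70).

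A further 46 genes of the pathway, 11 of initiation, 13 of elongation, 16 of nucleotide metabolism and 6 of chromatin, were also tested. At 24 h and 20 Gy in A. cahirinus 12 of 45 tested fell and 0 rose (all genes 2.7% and 0.89%), with a median of -0.31. In both mouse populations 0 of 46 passed by edgeR at that dose and time. In C56BL6 mice the counts were 2 at an unadjusted p under 0.05, where 9.82% of all genes did, and 0 by DESeq2, where 1.86% of all genes did; in wild mice the counts were 12 at an unadjusted p under 0.05, where 5.91% of all genes did, and 0 by DESeq2, where 0.763% of all genes did. At 12 d and 20 Gy 23 fell and 1 rose in A. cahirinus (all genes 18.1% and 13.8%), and 4 fell and 4 rose in C56BL6 mice (all genes 13.6% and 13%). In wild mice 0 of 45 passed by edgeR (all genes 0.0694%; 4 at an unadjusted p under 0.05, where 13.8% of all genes did, and 1 by DESeq2, where 4.67% of all genes did), and 0 without number 1. With passaging, 32 rose and 4 fell in C56BL6 mice (all genes 24.2% and 25.5%), 18 and 0 in wild mice (all genes 5.51% and 5.2%), and 12 and 1 in A. cahirinus (all genes 12.1% and 13.6%). Without number 1 the wild counts with passaging were 0 and 0. Rrm2b, the ribonucleotide reductase subunit induced by p53, had 14.5, 20.4, 14.5 and 15.6 CPM untreated and 19.4, 20.9, 17 and 16.5 CPM at 20 Gy in A. cahirinus at 24 h (log2 fold change 0.19, SE 0.14, adjusted p = 0.53), and 22.1, 25.8, 25.7 and 24.7 CPM untreated and 30.6, 26.1, 28.4 and 24.7 CPM at 20 Gy in C56BL6 mice at 12 d (log2 fold change 0.21, SE 0.09, adjusted p = 0.12). Both pairs of groups overlapped. Samhd1, which degrades deoxynucleotides, had 7.29, 4.06, 6.52 and 6.36 CPM untreated and 4.35, 2.88, 5.3 and 5.28 CPM at 20 Gy in A. cahirinus at 12 d (log2 fold change -0.43, SE 0.26, adjusted p = 0.23) and 103, 96.8, 138 and 124 CPM and 89.5, 117, 128 and 122 CPM in C56BL6 mice (log2 fold change 0.03, SE 0.15, adjusted p = 0.89), with overlap in each.

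The lowest of these genes at 12 d and 20 Gy was Dscc1, part of a clamp loader for cohesion, in A. cahirinus, with 2.36, 3.11, 4.12 and 3.45 CPM untreated and 0.156, 0.317, 0.455 and 0.14 CPM at 20 Gy (log2 fold change -3.58, SE 0.40, adjusted p = 0.0006), without overlap. In both mouse populations it was Pclaf, a partner of the clamp Pcna: 18.8, 7.11, 2.85 and 2.71 CPM untreated and 4.14, 1.19, 2.64 and 1.01 CPM at 20 Gy in C56BL6 mice (log2 fold change -1.76, SE 0.73, adjusted p = 0.11), and 6.85, 2.57, 0.764 and 14.8 CPM and 4.82, 1.79, 0.605 and 5.38 CPM in wild mice (log2 fold change -0.95, SE 0.93, adjusted p = 0.73; -1.18 without number 1). The Pclaf groups overlapped in both. The highest were Dck (deoxycytidine kinase) in A. cahirinus (log2 fold change 0.58, SE 0.11, adjusted p = 0.0046), Cad, which opens pyrimidine synthesis, in C56BL6 mice (log2 fold change 0.69, SE 0.18, adjusted p = 0.024), and Dna2, a nuclease and helicase, in wild mice (log2 fold change 0.54, SE 0.35, adjusted p = 0.55; 0.45 without number 1).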

How the data were processed

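PolyA RNA of primary skin fibroblasts was made into stranded mRNA libraries, per the labels' protocols. The authors trimmed and aligned reads with Trim Galore and HISAT2, per the submitters' processing notes, and deposited raw counts per gene made with featureCounts 2.0.3, per the file headers, on GRCm39 with Ensembl 108 genes for mice and on AcoCah2 for A. cahirinus. The headers show no option for strand, read pairs, multimapping or overlap, so reads in overlapping genes of either strand were left out. The authors' deposited exon lengths per gene gave RPKM. Mouse identifiers were paired with symbols from GENCODE M39.

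The members, the 46 other pathway genes and the marker lists were chosen with earlier results of these data known. Groups came from the labels. Each comparison used edgeR 4.0.16 in R 4.3.3 (filterByExpr, TMM, glmQLFit) on the libraries compared, with Benjamini-Hochberg adjustment over all genes. The standard error is the fold change over the square root of its F statistic. Population differences were interactions fitted on 18109 symbols found once in both tables. The animal codes in the library names link same-numbered libraries, and their deviations from group means correlated at 0.5 to 0.89 on average (lowest 0.36), against -0.29 to -0.12 for different numbers; the replicate block was an alternative, with DESeq2 1.42.0, RLE size factors, no filter and leaving out each number. A block fit without number 1, for wild mice at 12 d, was added after the data were seen. The labels do not say that cultures were independent within an animal, so p-values measure the spread between these libraries. No 2 libraries of a group held identical counts, but wild numbers 1 and 4 at 12 d could not be told apart by genes on in 1 animal and off in another, so n counts libraries. C56BL6 numbers 3 and 4 gave 0 such genes at either time, and A. cahirinus pairs at most 1. Scripts were tested on simulated data.

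Values were given for every library for 14 example members chosen by role, for the lowest and highest member of each comparison, and for Rrm2b, Samhd1 and the lowest and highest other pathway genes. Members named where 5 or fewer passed, and Rpa1 and Mcm5 beyond these rules, were chosen after their values were seen. Tables and figures used Python 3.11.15.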

Additional observations from a re-analysis of the deposited data

Results flagged for a closer look

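Among 166 sets of 4 libraries printed above, 10 had 1 library far from the other 3 by Dixon's ratio, where chance gives about 1 in 20. In C56BL6 mice replicate 1, the animal whose libraries hold keratin genes, stood apart for Cdc6 in untreated cells at 12 d (3.74 CPM, highest) and passaged cells (14.1 CPM, highest), and for Mcm10 untreated (5.4 CPM, highest) and at 20 Gy (2.06 CPM, highest) at 12 d. It was also the highest for Pold2 in passaged cells at 12 d (33.8 CPM) and untreated cells at 24 h (31.1 CPM) and for Pole in passaged cells at 12 d (54.4 CPM), and the lowest for Gins4 untreated at 12 d (33 CPM). The other sets were Cdc45 in untreated A. cahirinus at 12 d, where replicate 1 was low (4.76 CPM), and Rnaseh2a in wild mice at 24 h and 10 Gy, where the shallow replicate 1 library was high (64.8 CPM). The part of keratinocyte RNA or depth in these values was not tested.

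The change differed between populations, by the interaction test, for 21 members between A. cahirinus and C56BL6 mice at 24 h and 20 Gy, for 18 at 12 d and 20 Gy and for 28 with passaging, and for 5 members between A. cahirinus and wild mice at 12 d and 20 Gy. The populations were counted in separate tables with different annotations, so these differences are between fold changes and not between levels.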

How the results depend on the processing

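Counts of members called are given here in place of those of edgeR without a block, with 20 or 10 Gy set against untreated cells unless another group is named. The replicate block moved 16 of 26 counts by more than 1.5 times: C56BL6 mice 24 h 20 Gy 8 in place of 0, C56BL6 mice 24 h 10 Gy 16 in place of 0, C56BL6 mice 12 d 20 Gy 27 in place of 15, C56BL6 mice 12 d 10 Gy 12 in place of 6, wild mice 24 h 20 Gy 18 in place of 0, wild mice 12 d 20 Gy 5 in place of 0, wild mice 12 d 10 Gy 2 in place of 0, wild mice 12 d 20 Gy against 10 Gy 1 in place of 0, wild mice 12 d passaged 40 in place of 25, A. cahirinus 12 d 10 Gy 9 in place of 0, A. cahirinus 12 d 20 Gy against 10 Gy 39 in place of 5, A. cahirinus 12 d passaged 31 in place of 11, A. cahirinus less C56BL6 mice 24 h at 20 Gy 44 in place of 21, A. cahirinus less C56BL6 mice 12 d at 20 Gy 31 in place of 18, A. cahirinus less wild mice 24 h at 20 Gy 17 in place of 0, A. cahirinus less wild mice 12 d at 20 Gy 32 in place of 5. DESeq2 moved 8: C56BL6 mice 24 h 20 Gy 1 in place of 0, wild mice 24 h 20 Gy 1 in place of 0, wild mice 24 h 10 Gy 4 in place of 0, wild mice 12 d passaged 38 in place of 25, A. cahirinus 12 d 20 Gy against 10 Gy 32 in place of 5, A. cahirinus 12 d passaged 21 in place of 11, A. cahirinus less C56BL6 mice 24 h at 20 Gy 33 in place of 21, A. cahirinus less wild mice 12 d at 20 Gy 15 in place of 5. For wild mice with passaging, DESeq2 called 2903 of 13255 genes tested, and edgeR without a block 1497 of 13978. Shares over all genes are not given for the A. cahirinus counts by DESeq2 or for its differences between populations. With no filter on low counts 1 moved: wild mice 12 d passaged 15 in place of 25, where 765 of 27103 genes tested passed. RLE size factors moved none. The block without number 1, added after the data were seen and run for the 5 comparisons of wild mice at 12 d, moved 0. Leaving out each number in turn moved the counts of 12 comparisons, with these ranges: C56BL6 mice 12 d 20 Gy 1 to 20, C56BL6 mice 12 d 10 Gy 0 to 11, wild mice 12 d passaged 0 to 30, wild mice 12 d 20 Gy against passaged 0 to 43, A. cahirinus 24 h 20 Gy 0 to 40, A. cahirinus 24 h 10 Gy 0 to 43, A. cahirinus 12 d 20 Gy against 10 Gy 0 to 38, A. cahirinus 12 d passaged 0 to 35, A. cahirinus less C56BL6 mice 24 h at 20 Gy 0 to 10, A. cahirinus less C56BL6 mice 12 d at 20 Gy 6 to 21, A. cahirinus less wild mice 12 d at 20 Gy 0 to 4, A. cahirinus less C56BL6 mice 12 d with passaging 5 to 32. Signs reversed only for 10 fold changes that did not pass either way: Cdc6 C56BL6 mice 12 d 20 Gy (-0.64 to 0.052 over the numbers left out), Cdc6 C56BL6 mice 24 h 20 Gy (-0.26 to 0.0027 over the numbers left out), Gins4 wild mice 12 d passaged (-0.16 to 0.038 over the numbers left out), Mcm5 C56BL6 mice 24 h 20 Gy (-0.061 to 0.085 over the numbers left out), Mcm5 wild mice 12 d 20 Gy (0.18 with the block and without number 1, -0.53 to -0.032 over the numbers left out), Orc6 A. cahirinus 12 d 20 Gy against 10 Gy (-0.13 to 0.021 over the numbers left out), Orc6 A. cahirinus 12 d 20 Gy (0.015 with RLE size factors, 0.014 by DESeq2, -0.12 to 0.048 over the numbers left out), Rnaseh2a wild mice 24 h 10 Gy (-0.38 to 0.67 over the numbers left out), Rrm2 C56BL6 mice 12 d 20 Gy against 10 Gy (-0.013 to 0.075 over the numbers left out), Samhd1 C56BL6 mice 12 d 20 Gy (-0.056 to 0.081 over the numbers left out). Of the 105 single fold changes, 20 passed only with the block and none was lost with it. The cause of these differences was not tested. Low counts limited precision for Cdc6 in A. cahirinus at 20 Gy and 12 d and for Fen1 in mice, among others.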
